A study of Mus musculus with 106 samples.

Results

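The astrocyte genes are 34 protein-coding genes used as markers of astrocytes in the mouse brain. They were taken as a list of gene names and found by symbol among the 55401 mouse genes of the count table. Astrocytes are the glial cells that clear glutamate and GABA from synapses, buffer potassium and water, form junction-coupled networks, supply neurons with metabolites and release lipid carriers and extracellular matrix. In Huntington's disease they carry the mutant huntingtin allele as neurons do, and their glutamate and potassium handling has long been studied in the striatum. In the cerebellum the specialised astrocytes of the Purkinje cell layer are called Bergmann glia.

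The libraries came from Hdh Q7/Q200 mice (HD), which carry an expanded CAG repeat in 1 endogenous copy of the huntingtin gene, and from Hdh Q7/Q7 mice (control), described by the depositors as littermates without a statement for each mouse, all on the 129S4 background and 9 months old. In every mouse 1 allele of a Cre driver and 1 allele of *Rpl22*-HA (RiboTag) were present, so that ribosomes of the Cre-expressing neurons carried an HA tag, and an immunoprecipitation (IP) library holds mRNA bound to those ribosomes whereas a total RNA library (input) holds mRNA of all cells in the homogenate. The drivers were Gad2-IRES-Cre for GABAergic neurons, PV-IRES-Cre for parvalbumin neurons, vGluT2-IRES-Cre for neurons expressing *Slc17a6*, and an SST line for somatostatin neurons whose driver the labels do not describe further. The tissue was a cerebral hemisphere without the olfactory bulb, or the cerebellum (Gad2 and vGluT2 lines only). There were 106 libraries, 67 IP and 39 input, from 45 mice, and many mice gave several libraries. Library totals over mouse genes ran from 21905221 to 107753586, with a median of 35866726.

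The IPs numbered 6 control and 6 HD for cerebral Gad2, 6 and 5 for PV, 5 and 4 for SST, 6 and 6 for cerebral vGluT2, 6 and 6 for cerebellar Gad2, and 5 and 6 for cerebellar vGluT2. Inputs numbered 3 control and 3 HD per line and region, except 4 and 3 for SST and 4 and 4 for the cerebellar vGluT2 line. No driver targets astrocytes, and the counts do not separate astrocyte RNA carried into an IP from RNA of targeted neurons that express the same gene. A Cre driver marks each cell that ever expressed it. PV samples were pooled from duplicate IPs, and 3 of the 5 control SST IPs and 2 of the 4 control SST inputs came from mice whose codes start with Z while all HD SST mice had codes starting with BR, so mouse series and genotype cannot be fully told apart in that line. In each of the cerebellar Gad2, PV and cerebral vGluT2 IPs 1 HD library had been sequenced again.

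All libraries were first checked against markers of the targeted cells. In cerebral Gad2 IPs *Gad1*, *Gad2* and *Slc32a1*, the genes of GABA synthesis and vesicular loading, stood above input by log2 ratios of 2.13, 1.82 and 2.10. *Pvalb* was higher by 2.71 in PV IPs, *Sst* by 3.16 in SST IPs, and *Slc17a6* by 1.37 in cerebral and 1.5 in cerebellar vGluT2 IPs. In cerebellar Gad2 IPs all 6 Purkinje cell markers were higher (median 1.94), whereas in cerebellar vGluT2 IPs all 5 granule cell markers were higher (median 0.98) and all 6 Purkinje cell markers lower (median -2.70). PV and SST IPs also held more *Slc17a6* than input (1.28 and 1.13).

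The 34 genes were all well expressed in total RNA, and all 34 passed the filter of a mean count over 10 in every comparison. In CPM, counts scaled to a common library size with TMM factors, their sum in control inputs ran from 11670 to 19310 over the cerebral libraries and from 12780 to 16490 over the cerebellar ones. Levels of different genes were compared per kilobase of summed exon length, which covers all annotated exons of a gene and can exceed its transcripts. By that measure *Apoe* was the most abundant in the cerebrum with 1240 ± 293 CPM per kb (SD over 13 control inputs), followed by *Cst3* with 1180 ± 320, a difference within their spread. *Gldc* was the least abundant with 3.07 CPM per kb. In the cerebellum *Apoe* (717 ± 125 CPM per kb, SD over 7 control inputs) and *Aldoc* (692 ± 118) led, again within their spread, and *Cbs* came last with 3.23.

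In the IP libraries most astrocyte genes were scarce. The summed level of the 34 genes in control libraries was 2228 to 3927 CPM (median 2738) in cerebral Gad2 IPs, 1914 to 2690 (2244) in cerebral vGluT2 IPs and 3428 to 4938 (4065) in cerebellar vGluT2 IPs. It was higher in PV IPs, with 4346 to 5492 CPM (median 4978), in SST IPs, with 4956 to 6859 (6121), and in cerebellar Gad2 IPs, with 7572 to 8965 (8476), where *Aldoc* alone held 44.3% to 67.9% of the sum. The sums of IP and input control libraries did not overlap in any of the 6 cell types. IP and input of the same line were compared over both genotypes by the quasi-likelihood test of edgeR with genotype as a covariate and Benjamini-Hochberg adjustment over all protein-coding genes tested, and a gene was called at an adjusted p of 0.05 or less. By that test all 34 genes were lower in cerebral Gad2 IPs (25.4% of all genes tested were called lower) and in cerebral vGluT2 IPs (28.2%), 33 in cerebellar vGluT2 IPs (31.8%), 31 in cerebellar Gad2 IPs (32.7%), 30 in PV IPs (35.9%) and 28 in SST IPs (31.2%). The median log2 ratio of the 34 genes was -3.26 in cerebral vGluT2, -2.76 in cerebellar vGluT2, -2.71 in cerebral Gad2, -1.95 in cerebellar Gad2, -1.82 in PV and -1.28 in SST IPs, while the median of all genes tested lay between -0.02 and 0.07. Each fit held 1 ratio for both genotypes. In the cerebellar vGluT2 line, where 51.7% of all genes differed by genotype in total RNA, that ratio averages unlike inputs.

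**Figure D1:**
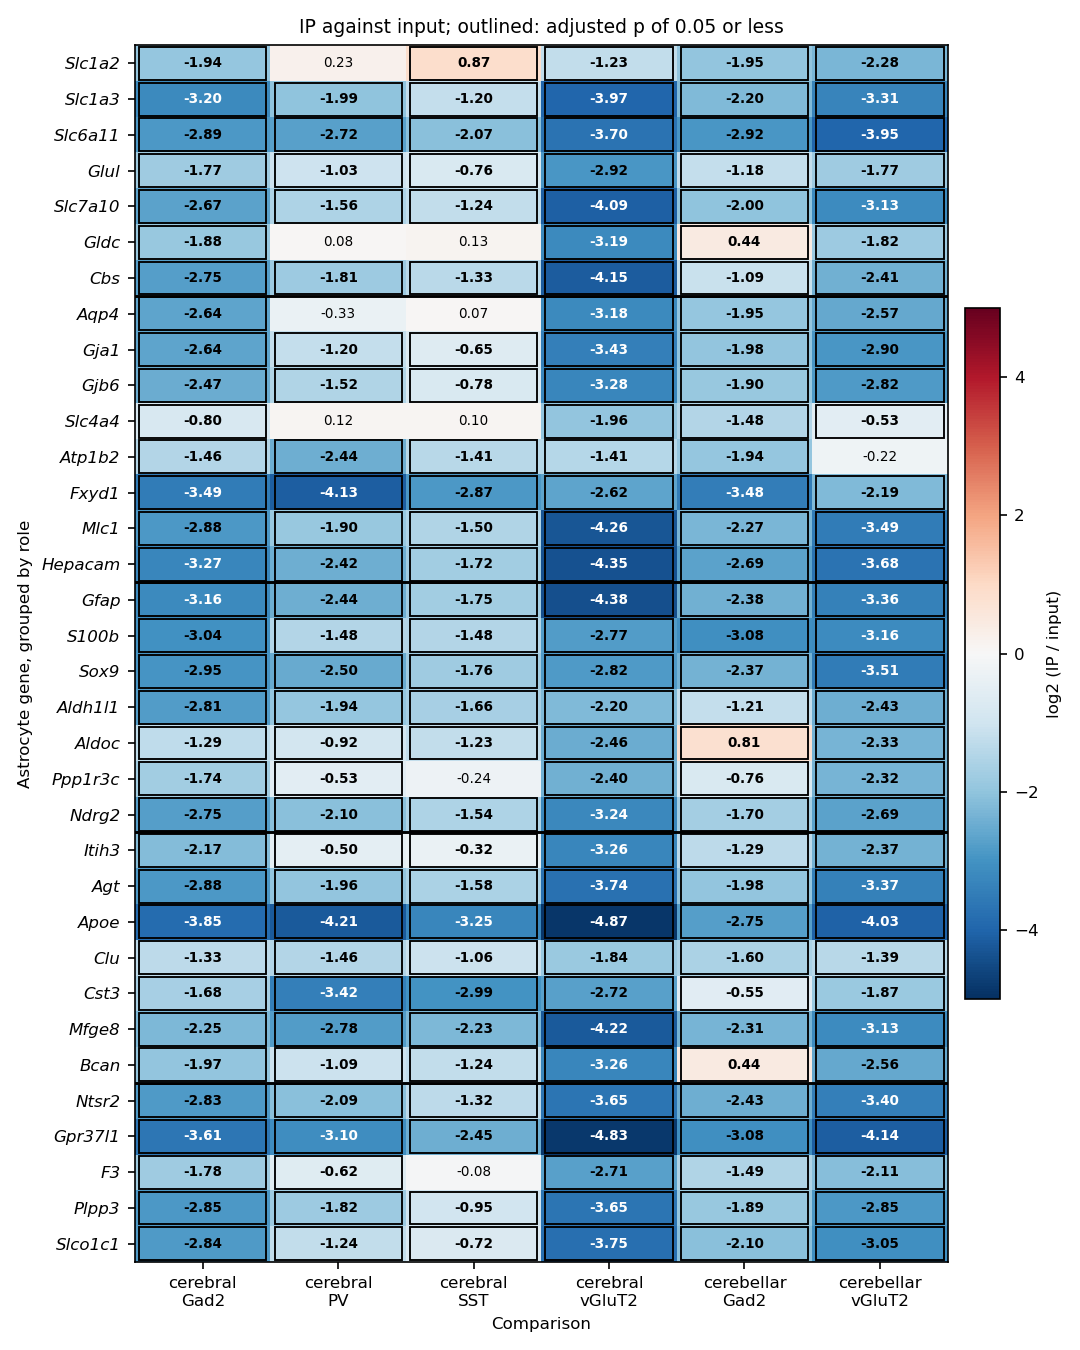
The log2 ratio of IP to input is shown by colour for each of the 34 astrocyte genes (lines of the grid, grouped by role) in 6 cell types (columns), each ratio fitted over both genotypes with the input of the same line. Nearly all cells of the grid are below 0, with *Apoe* in cerebral vGluT2 IPs the lowest (-4.87) and *Slc1a2* in SST IPs (0.87) and *Aldoc* in cerebellar Gad2 IPs (0.81) the highest.

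Genes of transmitter and amino acid handling were lower in IPs as a group, with role medians from -3.70 (cerebral vGluT2) to -1.20 (SST), but the glutamate transporters differed from each other. *Slc1a3*, which encodes GLAST, stood at 13.6 to 50.5 CPM (median 25.7) in control cerebral vGluT2 IPs against 212, 314 and 351 CPM in their inputs, and its ratio was the lowest there (-3.97) and the highest in SST IPs (-1.20). *Slc1a2* encodes GLT-1, the transporter responsible for most glutamate uptake in the forebrain, and some neurons also hold its mRNA. Its control levels were 898 to 1300 CPM (median 1070) in PV IPs against 339, 916 and 1050 CPM in PV inputs, and 1580, 1690, 1110, 1070 and 2130 CPM in SST IPs against 607, 654, 876 and 1320 CPM in SST inputs. In both lines the ranges of IP and input overlapped, and most IP libraries lay above most inputs. In cerebral Gad2 IPs the gene stood at 135 to 577 CPM (median 349) against 568, 698 and 1890 CPM in inputs, and in cerebral vGluT2 IPs at 360 to 655 CPM (median 524) against 537, 647 and 1210. The fitted log2 ratio of *Slc1a2* was 0.87 (SE 0.214) in SST IPs, called higher with an adjusted p of 0.00178 in edgeR, the only astrocyte gene so called there (32.2% of all genes were called higher), 0.23 and not called in PV IPs, and below 0 and called in the other 4 cell types, from -1.23 to -2.28. The PV value ran from 0.05 (without control PV input replicate 3) to 0.39 (without HD PV input replicate 2), and from 0.08 to 0.58 under other settings.

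*Slc6a11*, the GABA transporter GAT-3, had ratios from -2.07 (SST) to -3.95 (cerebellar vGluT2). *Glul*, which makes glutamine from glutamate and ammonia, and *Slc7a10*, a transporter of neutral amino acids including serine, were called lower in all 6 cell types, at -0.76 to -2.92 and -1.24 to -4.09. *Gldc*, the glycine-cleaving dehydrogenase, was not called in PV (0.08) or SST IPs (0.13) and was called higher in cerebellar Gad2 IPs (0.44, SE 0.138, adjusted p 0.00971 in edgeR). Control cerebellar Gad2 IPs held 30.7 to 58.3 CPM of *Gldc* (median 40.8) and their inputs 25.7, 29.9 and 35.9. These ranges overlapped, and with control libraries only the ratio was 0.49 and not called (adjusted p 0.061 in edgeR). *Cbs*, which condenses serine with homocysteine, was called lower throughout, from -1.09 in cerebellar Gad2 to -4.15 in cerebral vGluT2 IPs.

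Ion, water and junction proteins had role medians from -1.09 (SST) to -3.23 (cerebral vGluT2). *Aqp4*, the water channel of astrocyte endfeet, stood at 3.96 to 10.6 CPM (median 6.91) in control cerebral vGluT2 IPs against 24.2, 35.0 and 66.3 in inputs. In PV IPs it ran from 23.5 to 55.9 CPM (median 40.0) against 15.5, 59.5 and 67.1, and in SST IPs it was 55.6, 56.3, 35.6, 38.2 and 68.9 CPM against 61.4, 49.8, 41.3 and 69.0. The groups overlapped in PV and SST and not in cerebral vGluT2 libraries. *Aqp4* was called lower in the other 4 cell types but not in PV (-0.33) or SST IPs (0.07, turning to -0.01 with control libraries only and to -0.05 at the lowest without single libraries). Its PV ratio ran from -0.51 (without control PV input replicate 3) to -0.17 (without HD PV input replicate 2). *Slc4a4*, the sodium bicarbonate cotransporter, was likewise not called in PV (0.12) or SST IPs (0.10), and its ratio turned to -0.04 without HD PV input replicate 1 and to -0.0038 without control SST IP replicate 6. In the 12 of 16 SST libraries from mice that gave both an IP and an input, neither gene was called by edgeR without a block (0.23 and 0.27, adjusted p 0.271 and 0.183), a setting added after the data had been seen, and with the mouse as a block both were called higher, *Aqp4* at 0.25 (adjusted p 0.0427) and *Slc4a4* at 0.29 (adjusted p 0.0397). In cerebral Gad2 IPs *Slc4a4* had the ratio nearest 0 of the 34 genes (-0.80, called), and it was not called with control libraries only (-0.61, adjusted p 0.155 in edgeR) or with the mouse as a block in the 12 of 18 libraries from mice with both (-0.65, adjusted p 0.0686), whereas in the same 12 without a block it was called (-0.77, adjusted p 0.0391). In cerebellar vGluT2 IPs (-0.53, called) it was not called by edgeR in the 14 of 19 libraries from such mice, with the mouse as a block (-0.37, adjusted p 0.152) or without (-0.34, adjusted p 0.116). These were the 2 of 9 other settings that changed the call, and the lowest value over the 9 was -1.05. Control IPs held 175 to 325 CPM against 411 to 472 in control inputs, without overlap. HD IPs (134 to 283 CPM) and HD inputs (169 to 256 CPM) overlapped.

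The connexins of astrocyte gap junctions, *Gja1* and *Gjb6*, were called lower in all 6 cell types, at -0.65 to -3.43 and -0.78 to -3.28. *Mlc1* and *Hepacam*, whose products form a membrane complex at astrocyte junctions, ranged from -1.50 to -4.26 and from -1.72 to -4.35. *Fxyd1*, a regulator of the sodium pump, was among the 3 lowest of the 34 genes in cerebral Gad2 (-3.49), PV (-4.13), SST (-2.87) and cerebellar Gad2 IPs (-3.48). *Atp1b2*, the sodium pump subunit also known as the adhesion molecule on glia, differed: control cerebellar vGluT2 IPs held 1180 to 1770 CPM and their inputs 1140 to 1540 CPM. The groups overlapped, and the ratio of -0.22 was not called by edgeR (adjusted p 0.0795), whereas it was called lower by DESeq2 (-0.25), without TMM (-0.23), with inputs of both lines (-0.27), in mice with both libraries and no block (-0.34) and without 6 single libraries (control IP replicates 1, 2 and 3, control input replicates 2 and 4, and HD IP replicate 2, from -0.29 to -0.25), and reached 0.03 with control libraries only.

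Among intracellular proteins the classical markers were low in every IP. *Gfap*, the intermediate filament of astrocytes, stood at 6.35 to 20.2 CPM (median 11.3) in control cerebral vGluT2 IPs against 228, 236 and 247 in inputs, and at 46.8 to 81.3 (median 56.3) in SST IPs against 193 to 258. IP and input did not overlap in either line. *S100b*, a calcium-binding protein, ran from 16.7 to 57.8 CPM (median 23.7) in control cerebral Gad2 IPs against 166, 237 and 272, and from 40.8 to 106 (median 55.9) in SST IPs against 184 to 204. *Sox9*, a transcription factor of the glial lineage, *Aldh1l1*, a folate enzyme, and *Ndrg2* were called lower in all 6 cell types, at -1.76 to -3.51, -1.21 to -2.81 and -1.54 to -3.24. *Ppp1r3c*, which targets a phosphatase to glycogen, was called lower except in SST IPs (-0.24, called at -0.42 with control libraries only).

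*Aldoc*, a glycolytic aldolase that is also known as zebrin II and is made by subsets of Purkinje cells, behaved unlike the other members of its role in the cerebellum. Control cerebellar Gad2 IPs held 3350 to 5610 CPM (median 4960) against 1950, 2580 and 2840 in inputs, and the groups did not overlap. In control cerebellar vGluT2 IPs the range was 542 to 687 CPM (median 615) against 1750 to 2470 in inputs, and in cerebral Gad2 IPs 291 to 496 (median 404) against 825, 1180 and 1330. The ratio was 0.81 (SE 0.121) and called higher in cerebellar Gad2 IPs (adjusted p 1.02e-05 in edgeR), and it was called lower in the other 5 cell types, from -0.92 to -2.46. The 3 genes called higher in cerebellar Gad2 IPs, against 27.8% of all genes, were *Aldoc*, *Gldc* and *Bcan*. Purkinje cell markers were higher in the same IPs by a median of 1.94, and their part in the *Aldoc* result was not tested.

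Secreted proteins included the lowest ratios. *Apoe*, the main lipid carrier of the brain, stood at 39.0 to 197 CPM (median 81.1) in control cerebral vGluT2 IPs against 2180, 2660 and 2880 in inputs, and at 136 to 179 CPM (median 147) in PV IPs against 2190, 2820 and 3940. The groups did not overlap, and *Apoe* was the lowest of the 34 genes in all 4 cerebral cell types, at 3.41% of the input level in vGluT2 and 5.41% in PV IPs. *Cst3*, a secreted inhibitor of cysteine proteases that microglia also express, was low in PV IPs, with 107 to 166 CPM (median 154) against 1230, 1540 and 2290, and far nearer input in cerebellar Gad2 IPs, with 282 to 497 (median 333) against 412, 548 and 575. Its ratios were -3.42 and -0.55.

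*Agt*, angiotensinogen, the precursor of angiotensin peptides, had 4.67 to 8.48 CPM (median 7.26) in control cerebral vGluT2 IPs against 81.4, 113 and 128 in inputs, and 31.4 to 52.0 (median 36.6) in PV IPs against 103, 142 and 191. No control IP library reached the control inputs in either line. *Itih3*, which binds hyaluronan in the matrix, was called lower in all 6 cell types but lay closer to input in PV (-0.50) and SST IPs (-0.32) than in cerebral vGluT2 IPs (-3.26). *Clu*, the chaperone clusterin, kept a narrow range of ratios from -1.06 to -1.84. *Mfge8*, a bridging protein for phagocytosis, ran from -2.23 to -4.22. *Bcan*, the proteoglycan brevican, was higher in cerebellar Gad2 IPs (0.44, SE 0.117), where control IPs held 183 to 260 CPM (median 221) against 123, 162 and 173 in inputs without overlap, and lower in the other 5 cell types, from -1.09 to -3.26.

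Receptors and surface proteins had role medians from -0.95 (SST) to -3.65 (cerebral vGluT2). *Gpr37l1*, an orphan receptor of astrocytes, was among the 4 lowest genes in all 6 cell types, at -2.45 to -4.83, and control cerebral vGluT2 IPs held 7.71 to 16.2 CPM (median 11.7) against 296, 328 and 403 in inputs. *Ntsr2*, a neurotensin receptor, *Plpp3*, a lipid phosphate phosphatase, and *Slco1c1*, a thyroid hormone transporter, were called lower in all 6. *F3*, tissue factor, was called lower in 5 and not in SST IPs (-0.08), where the ratio turned to 0.09 without TMM and to 0.11 in mice with both libraries, with the mouse as a block and without it.

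Markers of other cells outside the targeted populations were counted in the same fits. Of all genes, 25.4% (cerebral Gad2), 35.9% (PV), 31.2% (SST), 28.2% (cerebral vGluT2), 32.7% (cerebellar Gad2) and 31.8% (cerebellar vGluT2) were called lower. The 12 oligodendrocyte markers had median ratios of -2.67 (cerebral Gad2), -1.64 (PV), -1.09 (SST), -3.66 (cerebral vGluT2), -2.03 (cerebellar Gad2) and -2.71 (cerebellar vGluT2), with 12, 10, 7, 12, 11 and 12 called lower. The 12 microglia markers had medians of -1.02, -2.92, -2.09, -4.14, -1.11 and -3.78 in the same order, with 10, 12, 12, 12, 11 and 12 called lower. Endothelial markers (10 genes) had medians of -2.75, -1.51, -1.14, -3.66, -2.18 and -3.05, and oligodendrocyte precursor markers (6 genes) of -2.90, -1.84, -1.23, -4.08, -1.90 and -3.11. A list of 24 other astrocyte genes had medians of -2.43, -1.73, -1.30, -3.24, -2.03 and -3.09, with 22, 20, 18, 24, 21 and 24 called lower. Its exceptions included *Id4* in cerebral Gad2 IPs (1.18), *Sparcl1* in PV IPs (0.63) and *Chrdl1* in cerebellar Gad2 IPs (1.96). Of 37 genes known from reactive astrocytes, 28 to 30 could be tested in an IP comparison, and their medians ran from -0.79 (SST) to -2.38 (cerebellar vGluT2).

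Whether depletion differed between cell types was tested as an interaction of preparation and line. Between PV and Gad2 in the cerebrum 26 of the 34 genes differed (53.6% of all genes tested), and between SST and Gad2 28 did (53.2%). *Slc1a2* and *Aqp4* were at the upper end of both, with differences of 2.17 (SE 0.404) and 2.29 (SE 0.503) for PV and 2.78 (SE 0.400) and 2.67 (SE 0.497) for SST, and *Cst3* was at the lower end (-1.75 and -1.34). Cerebral vGluT2 and Gad2 IPs differed in 25 genes (23.2%), most of them more depleted in vGluT2, as *Mfge8* (-1.93) and *Slc7a10* (-1.38), with *Fxyd1* (0.90) and *Aldh1l1* (0.65) called in the other direction. Cerebellar vGluT2 and Gad2 IPs differed in 30 (49.6%), led by *Aldoc* (-3.21), *Bcan* (-3.06) and *Gldc* (-2.31), while *Atp1b2* (1.66), *Fxyd1* (1.21) and *Slc4a4* (0.85) went the other way. The 3 cerebral contrasts share the Gad2 libraries. For PV and SST the shares of all genes that differed were above 50%, so a count of 26 or 28 of 34 stands beside a general difference between these libraries.

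In PV and SST IPs the ratio to input also moved with summed exon length over all genes. With all genes tested divided by exon length into 5 bins of equal size, the median log2 ratio from the shortest to the longest bin was -0.54, -0.24, -0.04, 0.22 and 0.66 in PV IPs, and from -0.53 to 0.63 in SST IPs, whereas in cerebral Gad2 IPs it went from 0.06 to -0.01. The astrocyte genes span 1266 bases (*Cst3*) to 13133 bases (*Slc1a2*). As a description across the 34 genes, which are not independent replicates, Spearman's rho of ratio and length was 0.352 in PV, 0.422 in SST and 0.187 in cerebral Gad2 IPs. Length balance, the deviation from the comparison's mean of the longest bin of genes less that of the shortest bin in a library (log2, members left out), was 0.12 to 0.68 in PV IPs and -1.34 to -0.27 in PV inputs, without overlap, so that preparation and length balance cannot be told apart in that line.

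**Figure D2:**
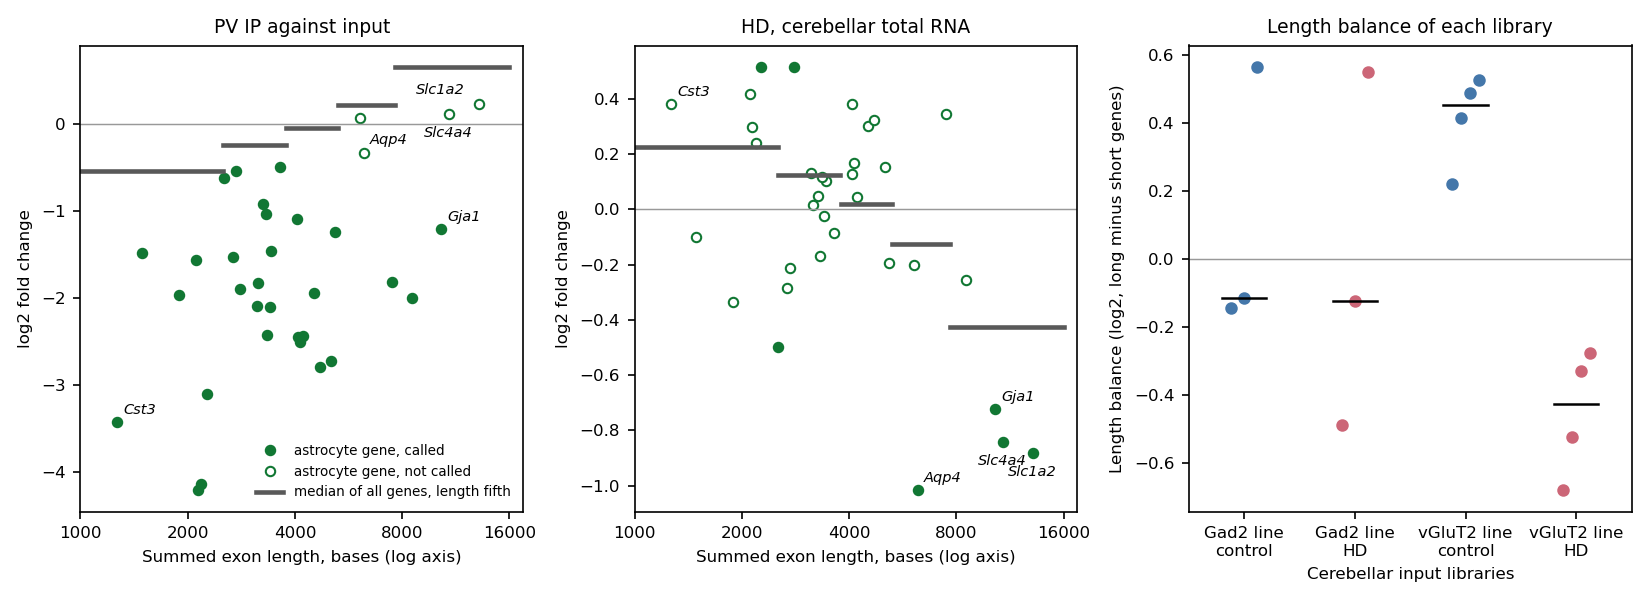
In the left and middle panels each point is an astrocyte gene, with summed exon length in bases on a log axis and the log2 value of IP against input in PV libraries or of HD against control in cerebellar total RNA on the vertical axis, and bars give the medians of all genes in 5 length bins (the outer bins end at the axis limits), which go from -0.54 to 0.66 and from 0.23 to -0.42. The right panel gives the length balance (log2) of each cerebellar input library with group medians as bars, where control and HD inputs of the vGluT2 line do not overlap and those of the Gad2 line do.

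The regions differed in their astrocyte genes. In inputs of the Gad2 and vGluT2 lines, 18 of the 34 genes were higher in cerebellum than in cerebrum (24.6% of all genes) and 11 were lower (30.2%), with a median of 0.34. Some mice gave inputs of both regions, and no fit between regions had the mouse as a block. All 7 ion, water and junction genes that were called were higher, as *Slc4a4* (1.74, SE 0.239), *Aqp4* (1.65, SE 0.337) and *Atp1b2* (1.41, SE 0.0745), while 5 of 7 secreted proteins were lower, as *Mfge8* (-1.33, SE 0.151) and *Cst3* (-1.18, SE 0.134). The transmitter genes split. *Slc1a3* stood at 287, 348 and 396 CPM in control cerebral inputs of the Gad2 line and at 1210, 1390 and 1420 in cerebellar ones without overlap, and was higher by 1.88 (SE 0.125, adjusted p 1.04e-12 in edgeR). *Slc6a11* stood at 350, 421 and 430 CPM against 87.7, 107 and 113, again without overlap, and was lower by a log2 value of -1.78 (SE 0.139). *Slc1a2* was lower at -0.91 (SE 0.289), but the call was lost with control libraries only (-0.38) and within either line (-0.87 and -0.85). *Gpr37l1* was higher by 1.38. Beside these, microglia markers were lower in the cerebellum (12 of 12, median -1.26), as were oligodendrocyte precursor markers (6 of 6, median -1.04), and their part in these results was not tested. In tissue RNA, fewer cells of a type and less RNA per cell cannot be told apart.

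In PV IPs of HD mice the secreted proteins *Agt* and *Itih3* were lower than in control IPs. *Agt* stood at 31.4 to 52.0 CPM (median 36.6) in 6 control IPs and at 14.7, 25.8, 12.3, 18.8 and 17.3 in 5 HD IPs, and *Itih3* at 58.5 to 84.6 (median 67.8) and at 30.8, 46.4, 33.8, 39.5 and 37.2. All 5 HD libraries lay below every control for both genes. *Agt* fell by 1.13 on the log2 scale (SE 0.168, adjusted p 0.043) and *Itih3* by 0.90 (SE 0.105, adjusted p 0.0145) in edgeR's quasi-likelihood test, the 2 of 34 genes called, against 0.034% of all genes tested. At an unadjusted p under 0.05 there were 15 of the 34, against 4.28% of all genes, and DESeq2 called 4 (0.285% of all genes). Values of 30 of the 34 genes lay below 0 (median -0.28, all genes 0.00), among them *Slc1a2* (-0.77) and *Slc6a11* (-0.73), which were not called.

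These PV calls rested on single libraries. No astrocyte gene was called without control PV replicate 1, 2 or 5 or HD PV replicate 1 or 3, and 1 was called without control replicate 3, 4 or 6 or HD replicate 5. *Agt* kept its call only without HD replicate 2, with log2 values of -1.27 to -1.03 over all leave-outs, and lost it also without the re-sequenced HD replicate and without TMM (-1.14, adjusted p 0.0649 in edgeR), whereas *Itih3* lost it without 5 of the 11 libraries (-0.96 to -0.85). With the replicate number as a block the log2 values were -1.11 and -0.90 and neither was called (adjusted p 0.317 and 0.216 in edgeR). HD replicate 3, which had the lowest *Agt*, also stood apart in cerebellar markers, with 4633 CPM summed over Purkinje cell markers (592 to 732.2 in the other HD PV IPs), 613.7 over granule cell markers (68.91 to 98.09) and 1260 of *Aldoc* (528 to 604). Control PV replicate 2 held 2004 CPM of Purkinje and 294.7 of granule cell markers (602.8 to 987.9 and 82.83 to 122.0 in the other controls). The part of these markers in the result was not tested. In the same comparison 11 of 12 oligodendrocyte markers lay below 0 (median -0.46, none called by edgeR), with summed levels of 1705 to 2715 CPM (median 2194) in controls and 1260 to 1803 (1479) in HD, and their part in the result was not tested.

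In cerebellar vGluT2 IPs of HD mice *Agt* and the clusterin gene *Clu* were lower. *Agt* stood at 13.2, 21.9, 12.5, 12.9 and 14.2 CPM in control IPs and at 5.83 to 12.0 (median 7.95) in 6 HD IPs, and *Clu* at 315, 309, 277, 301 and 253 CPM and at 195 to 246 (median 203). Both genes separated the groups without overlap. *Agt* fell by 0.82 (SE 0.195, adjusted p 0.047) and *Clu* by 0.45 (SE 0.0944, adjusted p 0.0262) in edgeR, against 2.11% of all genes called, and the median of the 34 genes was -0.14. No astrocyte gene was called without control replicate 1, 2 or 4 or HD replicate 1, 5 or 6, and 1 was called without control replicate 3 or 5 or HD replicate 2 or 4. *Agt* lost its call without every library but HD replicate 3, and its value was -0.64 without control replicate 2, the highest control. It was also not called by edgeR with all gene types (adjusted p 0.055), without TMM (0.075), without a filter (0.0591) or with the replicate number as a block (0.0994), and with that block *Clu* was not called either (0.122). *Clu* lost its call also without HD replicate 3 and ranged from -0.50 to -0.42. Among the 5 granule cell markers *Neurod1* fell by 0.87, *Cbln3* by 0.80 and *Cbln1* by 0.61 in the same libraries. The synaptic gene *Snap25* fell by 0.71, and the part of these genes in the result was not tested.

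No astrocyte gene was called by edgeR in the other 4 IP comparisons of HD and control, and DESeq2 called none either, against 0.523% (cerebral Gad2), 0.174% (cerebral vGluT2), 0.0136% (SST) and 0.156% (cerebellar Gad2) of all genes. In cerebral Gad2 IPs 6 of the 34 genes had an unadjusted p under 0.05, against 9.15% of all genes (0.0279% of all genes were called), and 29 of 34 values lay below 0 (median -0.22), with *Slc1a2* (-0.92) and *Agt* (-0.82) lowest and *Cst3* (0.41) and *Aldoc* (0.18) highest. Without single libraries *Aldoc* ran from 0.07 (HD replicate 2) to 0.32 (HD replicate 4), and with length balance as a covariate *Cst3* was 0.24 and *Slc1a2* -0.88. Over all genes of this comparison Spearman's rho of HD value and length was -0.24, and *Cst3* and *Slc1a2* are the shortest and the longest of the 34 genes. The same rho was -0.305 in SST, -0.293 in cerebral vGluT2 and -0.0158 in PV IPs. In cerebellar Gad2 and vGluT2 IPs it was -0.0679 and 0.0418. In the cerebral Gad2 IPs all 12 microglia markers lay above 0 (median 0.73, none called by edgeR), with summed levels of 130.0 to 291.2 CPM in controls and 143.0 to 553.8 in HD. In cerebral vGluT2 IPs 6 genes had an unadjusted p under 0.05, against 7.28% of all genes (0.00697% called). *Itih3* and *Slc1a3* were lowest there at -0.66 each in a list with a median of -0.37, and *Slc1a3* was -0.41 without control replicate 3. *Cst3* (0.11) and *Aldoc* (0.07) were highest. Without single libraries *Cst3* ran from 0.06 to 0.23, and other settings gave 0.01 at the lowest. In SST IPs 5 genes had an unadjusted p under 0.05, against 1.41% of all genes (0.0% called). *Apoe* (0.74) and *S100b* (0.48) were at the upper end and *Agt* (-0.80) and *Itih3* (-0.62) at the lower. Without HD SST replicate 4 *Apoe* was 0.48 and *S100b* 0.26, without control replicate 1 *S100b* was 0.73, and without the control mice with codes starting with Z they were 0.44 and 0.13. *Agt* in SST IPs stood at 43.4, 43.4, 46.2, 30.5 and 32.3 CPM in controls and at 18.6, 16.8, 25.4 and 28.4 in HD, without overlap. In cerebellar Gad2 IPs 2 genes had an unadjusted p under 0.05, against 2.3% of all genes (0.0142% called), *Agt* was lowest at -0.98 and *Aldoc* next at -0.54, while *Slc6a11* (0.11) and *Slc1a2* (0.09) were highest and changed sign without single libraries (-0.19 and -0.08 without HD replicate 2, and -0.02 for *Slc1a2* without control replicate 1).

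Side by side, *Agt* had log2 values for HD against control of -0.82, -1.13, -0.80 and -0.41 in cerebral Gad2, PV, SST and vGluT2 IPs, and of -0.98 and -0.82 in cerebellar Gad2 and vGluT2 IPs. *Itih3* had -0.75, -0.90, -0.62, -0.66, -0.37 and -0.13 in the same order. Whether the HD effect on either gene differed between cell types was not tested. *Gfap*, a gene that rises in reactive astrocytes, had values between -0.42 and 0.05 in these 6 comparisons and was called in none by edgeR.

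**Figure D3:**
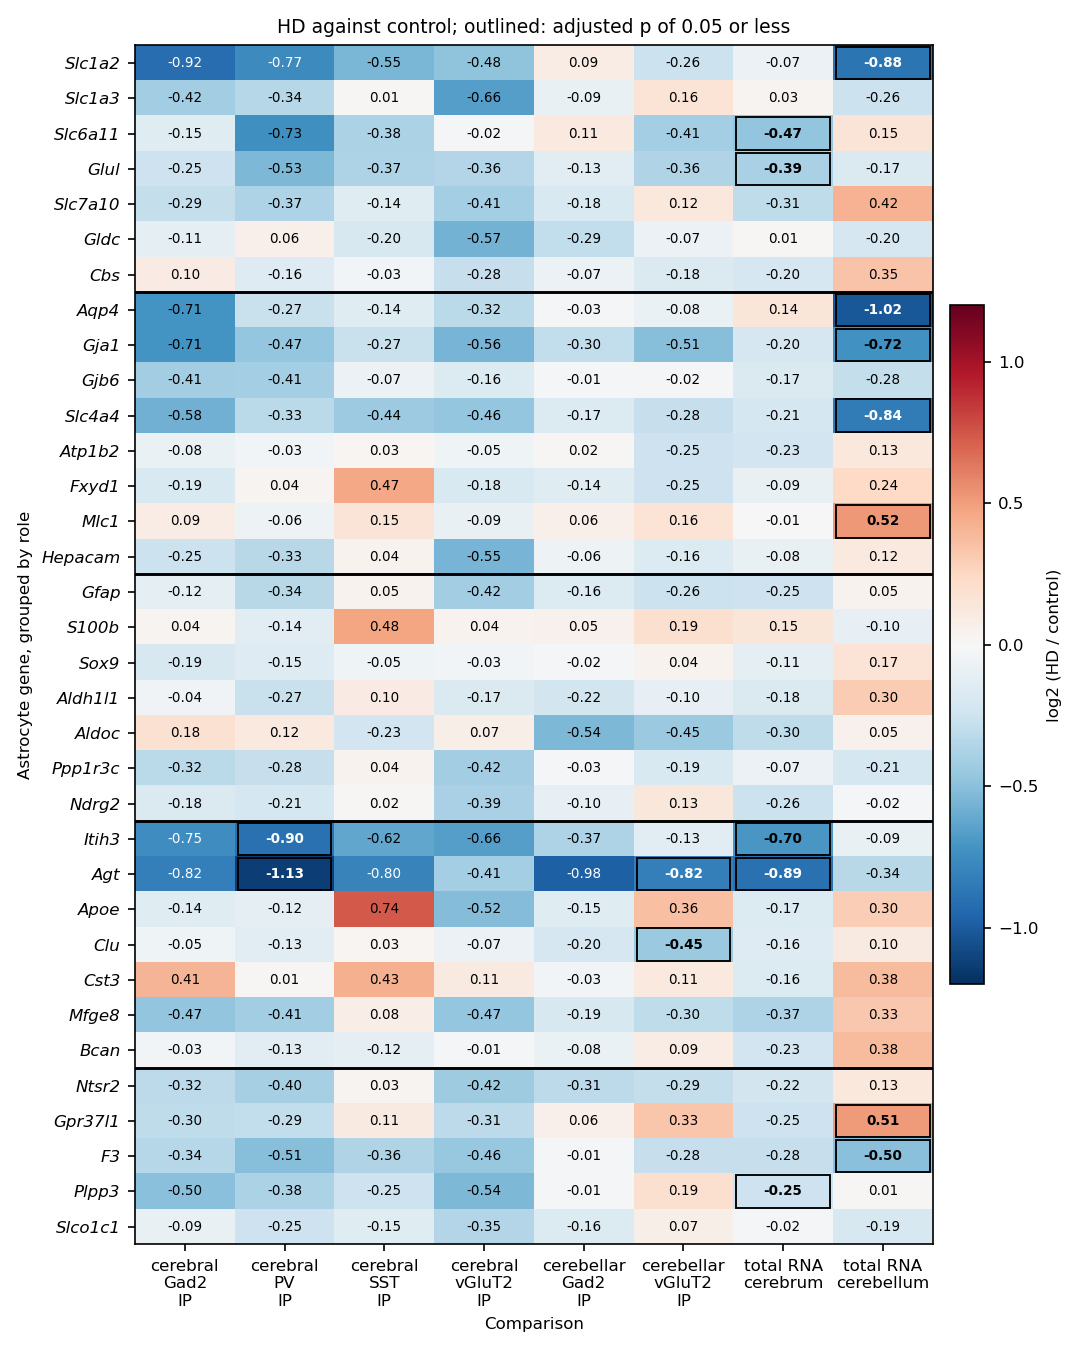
The log2 value of HD against control is shown by colour for each of the 34 astrocyte genes in 6 IP and 2 total RNA comparisons (columns), with called genes outlined. *Agt* is outlined in PV IPs (-1.13), cerebellar vGluT2 IPs (-0.82) and cerebral total RNA (-0.89), and cerebellar total RNA has outlined values in both directions, from -1.02 (*Aqp4*) to 0.52 (*Mlc1*).

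In cerebral total RNA of HD mice 5 astrocyte genes were lower and none was higher. *Agt* stood at 73.0 to 191 CPM (median 116) in 13 control inputs and at 35.0 to 104 (median 63.2) in 12 HD inputs, and *Itih3* at 41.4 to 132 (median 88.0) and 30.8 to 80.1 (median 51.5). For *Agt* 8 of the 12 HD inputs lay below all controls, and for *Itih3* 2 did, although within the Gad2, PV and SST lines no HD value of *Itih3* reached a control value. *Slc6a11* had 350 to 686 CPM (median 501) in controls and 250 to 493 (median 355) in HD, and *Glul* 1510 to 2450 (median 1720) and 1010 to 1980 (median 1350). The ranges overlapped, with 5 and 11 of 12 HD inputs below all controls. *Plpp3* had 215 to 317 CPM (median 253) in controls and 177 to 250 (median 224) in HD, with 3 of 12 below all controls.

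With the line as a covariate, edgeR's quasi-likelihood test gave a fall of 0.89 for *Agt* (SE 0.143, adjusted p 0.00148), of 0.70 for *Itih3* (SE 0.137, adjusted p 0.0121), of 0.47 for *Slc6a11* (SE 0.0772, adjusted p 0.0018), of 0.39 for *Glul* (SE 0.0872, adjusted p 0.0332) and of 0.25 for *Plpp3* (adjusted p 0.03). The 5 calls stand against 0.645% of all genes tested. The median of the 34 genes was -0.20, with 30 below 0, and that of all genes 0.02. By role, 2 of 7 transmitter genes, 2 of 7 secreted proteins and 1 of 5 receptors and surface proteins fell, and none of 8 ion, water and junction genes or 7 intracellular proteins was called by edgeR, where 13 of the 34 had an unadjusted p under 0.05 (7.03% of all genes did) and DESeq2 called 7 in all (1.43% of all genes). *Gfap* was not called (-0.25).

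The calls were lost without the SST line, in which genotype and mouse series are partly confounded, and no other line was left out in turn. Without that line, with 18 libraries in place of 25, no gene was called by edgeR (0.141% of all genes were). *Agt* then stood at -0.76 (adjusted p 0.0881 in edgeR), *Itih3* at -0.57, *Slc6a11* at -0.41, *Glul* at -0.30 and *Plpp3* at -0.19. Within single lines no gene was called, and *Agt* stood at -0.67 (Gad2), -0.75 (PV), -1.22 (SST) and -0.89 (vGluT2). *Itih3* ran from -1.02 (SST) to -0.29 (vGluT2), and *Glul* from -0.61 (SST) to -0.18 (PV). Inputs of the cerebral Gad2 line that share a replicate number also resembled each other across genotypes (0.966, 0.566 and 0.891), unlike some in the other lines (-0.674 to 0.537). With that number as a block in this line only, a setting added after the data had been seen, edgeR called *Agt* in the Gad2 line (-0.71, adjusted p 0.0378), the 1 astrocyte gene called, against 0.16% of all genes. The number joined mice BO3 and BO2, BO20 and BO8, and BO24 and BO19, and the labels state no pairing of them. As the block was chosen for that likeness, the call cannot serve as support for a fall. *Agt*, *Itih3* and *Slc6a11* were called without each of the 25 libraries in turn, but the count fell to 3 without control input Gad2 2, PV 1, SST 2, SST 3 or vGluT2 3 or HD input Gad2 2, PV 3, SST 1, SST 2, SST 3 or vGluT2 1. *Glul* lost its call also without control Gad2 1 and HD vGluT2 2 (-0.39 to -0.36 over all its losses), and *Plpp3* also without control Gad2 3, PV 3 and vGluT2 1 and HD Gad2 1 (-0.25 to -0.22). Both were also not called by edgeR without a filter (adjusted p 0.0522 and 0.0579) or with the replicate number as a block (0.0746 and 0.0601). That block joined equal numbers of all lines and formed no pairs within a line.

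**Figure D4:**
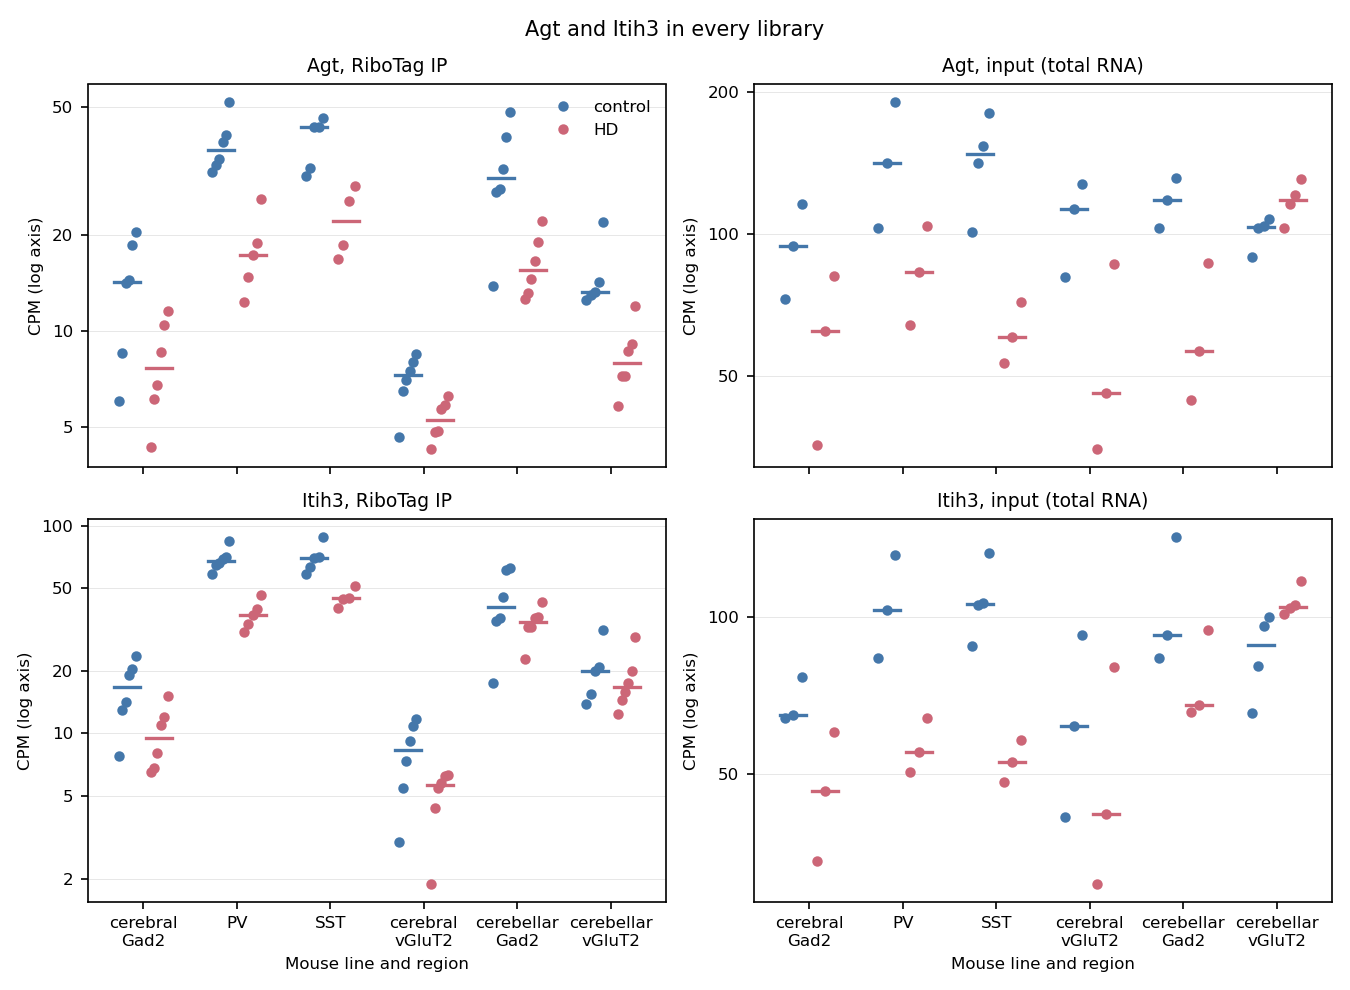
Points are single libraries and bars are medians, with CPM of *Agt* and *Itih3* on log axes for control and HD mice by cell type (IP) and by line (input). HD medians of *Agt* lie below control medians in all 6 IP groups, and its values in PV, SST and cerebellar vGluT2 IPs do not overlap by genotype.

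Other glial lists were counted in cerebral total RNA as well, where 0.645% of all genes were called. No microglia marker of 12 was called by edgeR (median 0.05), 2 of 12 oligodendrocyte markers fell (*Cldn11* by 0.51 and *Mal* by 0.41, median -0.23), and 1 of 24 other astrocyte genes fell, the growth factor receptor gene *Fgfr3* by 0.52. Of 29 reactive astrocyte genes tested 1 rose, *Vim*, the intermediate filament vimentin, by 0.48. The part of the oligodendrocyte markers in the astrocyte result was not tested.

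In cerebellar total RNA of HD mice the astrocyte genes moved in both directions, and the inputs of the vGluT2 line carried most of it. *Slc1a2* stood at 916, 600, 609 and 983 CPM in control and 381, 360, 301 and 372 in HD inputs of the vGluT2 line, and at 440, 990 and 356 against 343, 276 and 752 in the Gad2 line. *Aqp4* stood at 345, 264, 217 and 291 CPM against 94.5, 118, 81.6 and 119 in the vGluT2 line and at 161, 345 and 162 against 164, 106 and 273 in the Gad2 line. The groups were apart in the vGluT2 line and overlapped in the Gad2 line for both genes. *Mlc1* went the other way, with 219, 211, 266 and 205 CPM in control and 428, 473, 506 and 428 in HD inputs of the vGluT2 line, and *Gpr37l1* had 555, 501, 612 and 459 against 963, 1180, 1020 and 962. In the Gad2 line *Mlc1* had 347, 245 and 299 against 291, 380 and 222, and *Gpr37l1* 716, 567 and 725 against 747, 906 and 486, so both overlapped there. *Slc4a4* (411 to 472 against 169 to 256 CPM) and *F3* (26.7 to 37.5 against 12.3 to 26.2 CPM) did not overlap in the vGluT2 line, and *Gja1* did.

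With the line as a covariate edgeR called 7 of the 34 genes, beside 24.5% of all genes tested. Genes that fell were *Aqp4* by 1.02 (SE 0.299, adjusted p 0.034), *Slc1a2* by 0.88 (SE 0.3, adjusted p 0.0464), *Slc4a4* by 0.84 (SE 0.225, adjusted p 0.0301), *Gja1* by 0.72 (SE 0.243, adjusted p 0.0451) and *F3* by 0.50, and those that rose were *Mlc1* by 0.52 (SE 0.155, adjusted p 0.0355) and *Gpr37l1* by 0.51 (SE 0.147, adjusted p 0.0328). By role these were 1 of 7 transmitter genes, 4 of 8 ion, water and junction genes and 2 of 5 receptors and surface proteins. The median of the 34 genes was 0.05, 11 had an unadjusted p under 0.05 (44.4% of all genes did), and DESeq2 called 9 (34.4% of all genes). The share called is near that of all genes, so the count says little about astrocyte genes as such.

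The cerebellar calls depended on the line and on single inputs. Within the Gad2 line edgeR called no gene (*Aqp4* -0.29, *Slc1a2* -0.38, *Mlc1* -0.0008), and within the vGluT2 line it called 18 astrocyte genes beside 51.7% of all genes. The count was 0 without control Gad2 input 2, HD Gad2 input 2, or any of the 4 control or 4 HD vGluT2 inputs, 4 without HD Gad2 input 1 and 15 without HD Gad2 input 3. With the replicate number as a block, which joined equal numbers of both lines and formed no pairs within a line, it was 0 (0.249% of all genes called). *F3* was also not called by edgeR with all gene types (adjusted p 0.0515) or without a filter (0.0574), and *Mlc1* was not without TMM (0.058).

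HD and control inputs of the vGluT2 line also differed in length balance and in other glial markers. Over all genes the median HD value went from 0.23 in the shortest to -0.42 in the longest of the 5 length bins, and length balance was 0.22 to 0.53 in control and -0.68 to -0.28 in HD inputs of the vGluT2 line, without overlap, so that genotype and length balance cannot be told apart there. With length balance as a covariate, a setting chosen after the data had been seen, edgeR called 1 astrocyte gene, *Agt* (-0.76, adjusted p 0.0423), beside 0.573% of all genes, while *Slc1a2* stood at -0.02 and *Aqp4* at -0.15. The fit without that covariate did not call *Agt*. Its level in the vGluT2 line was 103 to 131 CPM in HD and 89.7 to 108 CPM in control inputs. The same covariate in cerebral total RNA gave 16 astrocyte genes, all lower (3.68% of all genes), with *Agt* at -0.86 and *Gfap* among them. In the cerebellum, where 24.5% of all genes were called in the fit without that covariate, 7 of 12 microglia markers rose, among them *Tmem119* (0.66) and *C1qa* (0.60), with summed levels of 154.2 to 178.2 CPM in control and 274.2 to 310.4 in HD inputs of the vGluT2 line. Oligodendrocyte markers fell in 5 cases, as *Ermn* by 1.46 and *Mobp* by 1.05, and rose in 1 (*Cnp*, 0.54), with summed levels of 4825 to 5700 CPM and 3883 to 5209. Their part in the astrocyte result was not tested.

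In the cerebellar inputs, where 24.5% of all genes were called (1732 higher and 1812 lower), genes of other lists were called in both directions as well. Of 24 other astrocyte genes *Kcnj16* fell by 0.70, *Mt1* by 0.56 and the potassium channel gene *Kcnj10* by 0.38, while *Slc25a18* rose by 0.56 and *Acsbg1* by 0.59. Of 31 reactive astrocyte genes tested *Psmb8*, *Serping1*, *H2-D1* and *Stat3* rose by 0.77, 0.65, 0.43 and 0.40, and *B3gnt5* and *Amigo2* fell by 1.28 and 0.37. Among neuronal markers *Snap25*, *Map2*, *Gad2*, *Gad1*, *Itpr1*, *Calb1* and *Cbln3* fell, by 0.89, 0.86, 1.0, 0.35, 0.93, 0.56 and 0.55, and *Tubb3* and *Slc17a7* rose by 0.54 and 0.57. The endothelial transporter gene *Abcb1a* fell by 1.19, and the precursor markers *Olig1* and *Cspg4* rose by 0.48 each.

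*Agt* stood at 118, 103 and 132 CPM in control and 56.7, 87.0 and 44.6 in HD cerebellar inputs of the Gad2 line, without overlap, and at 104, 89.7, 108 and 103 against 131, 116, 121 and 103 in the vGluT2 line. The difference of the HD effects between the lines (1.0, SE 0.240) missed the threshold with an adjusted p of 0.0507 in edgeR. *Mlc1* was the 1 astrocyte gene whose HD effect differed between the cerebellar lines by that test (0.89, SE 0.207, adjusted p 0.0495). The share of all genes called was 1.64%, and without TMM it was 9.82% (32 genes higher and 1389 lower). Of the 34 astrocyte genes 19 had an unadjusted p under 0.05, against 28.9% of all genes. The number called went from 1 to 14 without control Gad2 input 2, 15 without HD Gad2 input 2, 3 without HD vGluT2 input 1, 2 without control vGluT2 input 3 and 0 without each of the other 10 inputs. The myelin gene *Mag* (0.95) differed in the same contrast. Between cerebellum and cerebrum no HD effect on an astrocyte gene differed by edgeR (0.222% of all genes did), and 13 had an unadjusted p under 0.05, against 39.6% of all genes. The mouse was not a block in that fit, although some mice gave inputs of both regions. The number called went from 0 to 14 without control cerebral Gad2 input 1, 11 without HD cerebellar Gad2 input 3, 9 without HD cerebral Gad2 input 3 and 3 without control cerebellar Gad2 input 3.

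The 34 genes lie on 17 chromosomes, with 4 each on chromosomes 7, 11 and 14 and 3 on chromosome 6. Promoter windows of 300 bases from RefSeq (GRCm38.p6) were matched to 30 of them, and the set searched held none for *Sox9*, *Atp1b2*, *Aqp4* and *Clu*. The chromosome that holds *Aqp4* was left out of that set before matching, so a window of *Aqp4* was not looked for. The shares of all promoters given below lack that chromosome too. On either strand TTGGC, a site known for NFI factors, was in 15 of the 30 windows (46.7% of 32851 promoters hold it), ACAAAG, a SOX core, in 4, those of *Apoe*, *Fxyd1*, *Hepacam* and *Slco1c1* (18.7%), and TATAAA in 8, those of *Agt*, *Apoe*, *F3*, *Fxyd1*, *Itih3*, *Ndrg2*, *Slc1a3* and *Slco1c1* (13.6%). TTCCNGGAA, a STAT palindrome, was in 3, those of *Agt*, *Aldoc* and *Gfap* (1.15%). The windows of *Agt* (chr8:124569657-124569956, minus strand) and *Itih3* (chr14:30923538-30923837, minus strand) are shown because both genes fell in HD PV IPs and cerebral inputs, and that of *Gfap* (chr11:102897151-102897450, minus strand) because it shares the palindrome with *Agt* and was called in no HD comparison unless length balance was a covariate (-0.24 in cerebral total RNA, adjusted p 0.0372 in edgeR). Capitals mark TTCCNGGAA and TATAAA as read on the strand of the gene, and a match of letters is not a binding site.
Agt: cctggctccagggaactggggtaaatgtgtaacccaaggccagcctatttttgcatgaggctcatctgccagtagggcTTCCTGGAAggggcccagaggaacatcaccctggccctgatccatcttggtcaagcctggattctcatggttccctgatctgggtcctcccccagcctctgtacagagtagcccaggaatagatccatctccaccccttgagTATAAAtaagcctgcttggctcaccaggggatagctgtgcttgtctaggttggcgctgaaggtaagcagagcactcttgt
Itih3: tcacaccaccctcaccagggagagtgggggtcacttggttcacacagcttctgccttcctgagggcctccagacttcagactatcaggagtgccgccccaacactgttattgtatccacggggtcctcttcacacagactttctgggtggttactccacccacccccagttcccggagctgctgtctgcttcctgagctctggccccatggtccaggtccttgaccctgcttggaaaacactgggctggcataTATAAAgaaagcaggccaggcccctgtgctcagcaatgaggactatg
Gfap: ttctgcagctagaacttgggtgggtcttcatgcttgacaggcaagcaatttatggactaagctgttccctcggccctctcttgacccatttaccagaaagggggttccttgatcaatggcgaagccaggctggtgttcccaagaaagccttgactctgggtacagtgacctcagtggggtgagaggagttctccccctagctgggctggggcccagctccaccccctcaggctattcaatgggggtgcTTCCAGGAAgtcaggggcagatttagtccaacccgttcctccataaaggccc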

How the data were processed

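The authors deposited estimated counts per gene, not normalized, made from stranded mRNA read pairs with STAR and Salmon in nf-core/rnaseq, on GRCm38.p6 according to the submitters' processing notes. Of these values 8.57% were not whole, and all were rounded. The 92 spike-ins, at most 4.45% of a library, were left out. Of 55401 mouse genes, 55141 were found in GENCODE M21 by Ensembl identifier, which gave symbols, gene types (21897 protein-coding), positions and exon lengths. Replicates were checked for duplicates, and over 201 pairs the smallest chi-square per degree of freedom was 8.42.

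Genes were tested if protein-coding and with a mean count above 10 over the libraries of a comparison. The test was edgeR's quasi-likelihood test (version 4.0.16 under R 4.3.3) after TMM normalization, with Benjamini-Hochberg adjustment over every gene tested, and a gene was called at an adjusted p of 0.05 or less. IP was compared with input of the same line with genotype as a covariate, HD with control within each IP type, and HD with control in total RNA with the line as a covariate. Differences between cell types, lines or regions were tested as interactions. To get SE, the log2 value was divided by the root of its F statistic. CPM were computed with 1 TMM normalization over the 106 libraries. Length balance is the median deviation of log2(CPM + 1) from each gene's mean over the longest of 5 equal bins of genes less that over the shortest bin, with the 34 genes left out. Fits were tested on simulated data. Depth limits the precision of the least abundant genes.

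The members and lists were chosen with earlier results of these data known. Genes were named by rule: the 4 lowest, the 4 highest and each gene not called lower per IP comparison, each called gene (otherwise the 2 lowest and 2 highest) per HD comparison, and the 4 lowest and 4 highest between regions, while any of the 34 could be named for its role. From other lists the genes called in an HD comparison were named, or up to 4 examples.

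Alternatives were DESeq2 1.42.0, DESeq2 size factors, no TMM, no filter, all gene types, leaving out each library, inputs of all lines, control libraries only, the mouse as a block (only mice with both an IP and an input library), the replicate number as a block, no re-sequenced library, each line alone, no SST line, no control SST mice with codes starting with Z, length balance as a covariate, the cerebral Gad2 line's inputs with the replicate number as a block, and mice with both libraries without a block, the last 3 added after the data had been seen. No set test was run. A few marker genes are left out of the text.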

Additional observations from a re-analysis of the deposited data

Results flagged for a closer look

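In 4 of 42 tests a library stood far from the rest of its group, and chance flags about 1 in 20 tests. A test took the summed level, or a gene called in an HD comparison, in 1 group. Groups were tested more than once, so the tests are not independent. The summed level of the 34 astrocyte genes was 13580 CPM in control SST input replicate 4, the lowest of 4, and 4334 CPM in HD cerebellar vGluT2 IP replicate 3, the highest of 6. *Agt* stood at 21.9 CPM in control cerebellar vGluT2 IP replicate 2, the highest of 5, and *Clu* at 246 CPM in HD cerebellar vGluT2 IP replicate 4, the highest of 6.

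Differences between groups were found by interaction tests in edgeR. The ratio of IP to input differed between PV and Gad2 in the cerebrum for 26 astrocyte genes (53.6% of all genes), between SST and Gad2 for 28 (53.2%), between cerebral vGluT2 and Gad2 for 25 (23.2%), and between cerebellar vGluT2 and Gad2 for 30 (49.6%). The HD effect in cerebellar total RNA differed between the vGluT2 and Gad2 lines for 1 astrocyte gene, *Mlc1* (1.64% of all genes).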

How the results depend on the processing

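Of the counts of called astrocyte genes, 150 of those under other settings stayed within 1.5 times the reported count and 24 did not, and with 1 library left out 522 did and 60 did not. For the named genes under other settings 708 values kept their direction and side of the threshold, 73 lost the call, 7 gained it and 8 changed sign, and with 1 library left out 1388, 133, 6 and 8 did. The causes were not tested. Without TMM the median of all genes stood at 0.17 in PV and 0.16 in SST IPs against input.

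The counts that moved were these. SST genes above input numbered 3 with the mouse as a block, which kept only mice with both libraries, and 1 in those mice without a block (added after seeing the data). For HD in PV IPs DESeq2 gave 4, no TMM 1, the replicate block 0 and leave-outs 0 to 2. For HD in cerebellar vGluT2 IPs all gene types, no TMM and no filter gave 1 each, the replicate block 0 and leave-outs 0 to 2. For HD in cerebral total RNA no filter and the replicate block gave 3 each, each line alone 0, the Gad2 line with the replicate block (added after seeing the data) 1, no SST line 0, length balance (chosen after seeing the data) 16 and leave-outs 3 to 7. For HD in cerebellar total RNA the replicate block gave 0, the Gad2 line 0, the vGluT2 line 18, length balance 1 and leave-outs 0 to 15. Genes lower in the cerebellum numbered 7 in the Gad2 line. The HD difference between regions gave 0 to 14 with leave-outs, and that between cerebellar lines 0 with DESeq2 size factors, 0 without a filter and 0 to 15 with leave-outs.

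Signs changed near 0. In PV IPs *Slc4a4* was -0.032 with inputs of all lines and -0.041 to 0.28 with leave-outs. In SST IPs *Aqp4* was -0.045 with inputs of all lines, -0.015 with controls only and -0.051 to 0.15 with leave-outs, *F3* 0.090 without TMM, 0.11 with the mouse as a block and 0.11 in the same mice without it, and *Slc4a4* -0.0038 to 0.21 with leave-outs. In cerebellar vGluT2 IPs *Atp1b2* was 0.030 with controls only. For HD in cerebellar Gad2 IPs leave-outs gave -0.081 to 0.24 for *Slc1a2* and -0.19 to 0.20 for *Slc6a11*, and in the Gad2 line's cerebellar total RNA *Mlc1* was -0.0008.

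Within an IP type the replicate block pairs control and HD libraries that share a replicate number. In total RNA over several lines it joins libraries of the same number from all lines, so it forms no pairs within a line. In the Gad2 IPs the mice of a pair also have neighbouring codes, whose meaning the labels do not state. Deviations from the group means of control and HD libraries of the same line, region, preparation and number correlated between -0.851 and 0.966 across genes over 48 pairs, 25 of them above 0.1. In no comparison were all pairs above 0.1, but within the cerebral Gad2 inputs all 3 were (0.966, 0.566 and 0.891).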
